A study of Homo sapiens with 89 samples.

Results

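The measurements concern 10 genes of the NF-kB pathway: the subunit genes NFKB1, NFKB2 and RELB, the inhibitor and feedback genes NFKBIA and TNFAIP3, the signalling genes BIRC3 and TRAF1, and the inflammatory target genes CXCL8, CCL2 and ICAM1. They were taken by symbol from the gene rows of 2 RNA-seq count tables, and each symbol matched 1 row of the 57905 gene rows in either table. Polyadenylated RNA had been sequenced from human neuroblastoma cell lines in 15 libraries, 3 in each of 5 groups, out of 89 samples in the series, and the other 74 samples were not analysed here. SHEP, a mesenchymal-type line without MYCN amplification, gave 3 groups: cells labelled no MYCN and no doxycycline, cells with doxycycline-induced wild type MYCN, and cells with doxycycline-induced MYCN 3A, a triple mutant that the labels describe as unable to bind RNA. IMR-32, an adrenergic-type line with MYCN amplification, gave 2 groups of cells with a doxycycline-inducible shRNA against EXOSC10, the catalytic exoribonuclease of the nuclear RNA exosome: an uninduced control, whose columns are named EtOH, and a group given doxycycline. Doxycycline was used at 1 µg/ml, so in every comparison with an untreated group the construct and the drug cannot be told apart. Wild type MYCN against MYCN 3A is matched for the drug, but is not known to be matched for the level of the construct. There the mutation also cannot be told apart from other differences between the cells carrying each construct. Neither the treatment time nor whether each construct line is a single clone is given in the sources used here, and the labels do not say that replicates came from separate cultures, so p-values measure the spread between these libraries only. A gene was called when edgeR's quasi-likelihood test gave a Benjamini-Hochberg adjusted p under 0.05 over all tested genes. Of the 10 genes, 8 passed the filter on low counts in SHEP and 5 did in IMR-32.

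NF-kB is a family of dimeric transcription factors that are held in the cytoplasm by inhibitors of the IkB family until signals from cytokine receptors or pattern receptors have the inhibitor degraded. The freed dimers bind kappa B sites at target genes, several of which encode the pathway's own subunits, inhibitors and ubiquitin-editing enzymes, so that the response feeds back on itself. MYCN belongs to the MYC transcription factors, which bind the E-box CACGTG together with the partner protein MAX.

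The promoter sequences are shown because several of these genes are textbook kappa B targets. RefSeq windows on GRCh38.p14, from 250 bases before to 50 bases from the annotated start, were at hand for 8 of the 10 genes, in 13 windows, and for neither RELB nor CCL2. Both strands were searched for the 10-base kappa B consensus and for GGAAANNCC, whose matches overlap those of the consensus and whose letters were chosen after these promoters had been read, so its share among them is no test. The consensus is present in 5.91% and GGAAANNCC in 6.26% of all 35116 windows of 300 bases, and CACGTG is present in 7.26%. The consensus matched at 5 of the 8 genes, in 6 windows, GGAAANNCC matched at all 8 genes, in 9 windows, and CACGTG at TNFAIP3 alone. A match describes these letters and not binding. Stretches around selected matches before the start are printed 5′ to 3′ on the gene's strand, with kappa B matches, and the E-box of TNFAIP3, in capitals. The match at TRAF1, which has no consensus site and lies after the start, a match of NFKBIA farther upstream and the matches of another NFKB2 window are not printed. CXCL8 and ICAM1 hold GGAAANNCC and no consensus site. BIRC3 is at chr11:102317265-102317378 (plus strand), TNFAIP3 at chr6:137867172-137867233 (plus), NFKBIA at chr14:35404801-35404850 (minus), NFKB1 at chr4:102501290-102501339 (plus), NFKB2 at chr10:102394451-102394529 (plus), CXCL8 at chr4:73740458-73740506 (plus) and ICAM1 at chr19:10270914-10270962 (plus).
BIRC3: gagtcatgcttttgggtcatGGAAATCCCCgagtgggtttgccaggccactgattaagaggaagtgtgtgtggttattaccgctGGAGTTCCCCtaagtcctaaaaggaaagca
TNFAIP3: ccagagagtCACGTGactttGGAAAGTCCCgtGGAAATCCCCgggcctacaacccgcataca
NFKBIA: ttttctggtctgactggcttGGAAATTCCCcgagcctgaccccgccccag
NFKB1: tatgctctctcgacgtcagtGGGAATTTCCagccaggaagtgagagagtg
NFKB2: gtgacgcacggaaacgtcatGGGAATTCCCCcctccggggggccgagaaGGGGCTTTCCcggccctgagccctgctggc
CXCL8: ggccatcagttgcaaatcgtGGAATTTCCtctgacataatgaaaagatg
ICAM1: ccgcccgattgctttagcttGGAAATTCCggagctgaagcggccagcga

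Library totals ranged from 11638859 to 15353505 counts in SHEP and from 16394148 to 26193478 in IMR-32, and 14923 and 17103 genes were tested. Levels are given in CPM, the count as a share of the TMM-scaled library total. Where genes are compared with each other, levels are in TPM, which divides the count by gene length. TPM scales each library to its own sum and uses no TMM. EXOSC10, the target of the shRNA, fell from 68.6 to 47.3 CPM in IMR-32 (log2 fold change -0.54, SE 0.08, edgeR adjusted p = 2.27e-08), and MYCN fell from 1097 to 599 CPM. The MYCN row of the SHEP table held 0 to 10 counts in each library of all 3 groups, so the constructs cannot be checked there and the SHEP groups rest on their labels. SHEP showed mainly the mesenchymal markers (summed level 5904 to 7362 CPM, against 70.0 to 87.7 CPM for the adrenergic list). Of the adrenergic list, TH and DBH were at 0 in all SHEP libraries, and HAND2 made up most of the sum (group means 60.1 to 71.6 CPM). IMR-32 control showed mainly the adrenergic markers (3081 to 3321 CPM), but its mesenchymal list also summed to 789 to 818 CPM. Over all tested genes, 1634 were higher and 1681 lower in wild type MYCN against no MYCN (1163 and 2147 with library totals in place of TMM), 1893 and 1913 in MYCN 3A against no MYCN (1232 and 2928), and 2359 and 2168 in wild type against 3A.

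In SHEP, the libraries labelled wild type MYCN had more RNA of all 8 tested NF-kB genes than those labelled no MYCN. BIRC3, TNFAIP3, CXCL8 and TRAF1 rose most, from 4.92-fold to 2.86-fold, RELB rose 2.14-fold, and NFKB2, NFKB1 and NFKBIA rose by 1.49-fold to 1.36-fold. All 8 were called higher, where 10.9% of all tested genes were (22.2% called in either direction), and all 8 had ranges that did not overlap, where 37.5% of all tested genes had. Their median log2 fold change was 1.31, against -0.00 over all tested genes. The genes were chosen with earlier results of these data known, so the contrast with all tested genes is a description. In the libraries labelled MYCN 3A, edgeR called 0 of the 8 against no MYCN, where it called 25.5% of tested genes (12.7% higher and 12.8% lower). DESeq2 called 2 of the 8, beside 3770 of all 12654 genes it tested. Of the 8, 4 had an unadjusted edgeR p under 0.05, a level that all of the called 25.5% also passed. The full share of tested genes at that level was not counted. Against 3A, wild type had 7 of the 8 called higher, where 15.8% of tested genes were (30.3% in either direction), and 8 of 8 with ranges apart, where 40.4% had, with a median of 1.47. Both comparisons with no MYCN share the same 3 control libraries, and both comparisons with wild type share its 3 libraries. In bulk RNA of this kind, fewer cells that express a gene and less RNA per cell cannot be told apart.

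**Figure D1:**
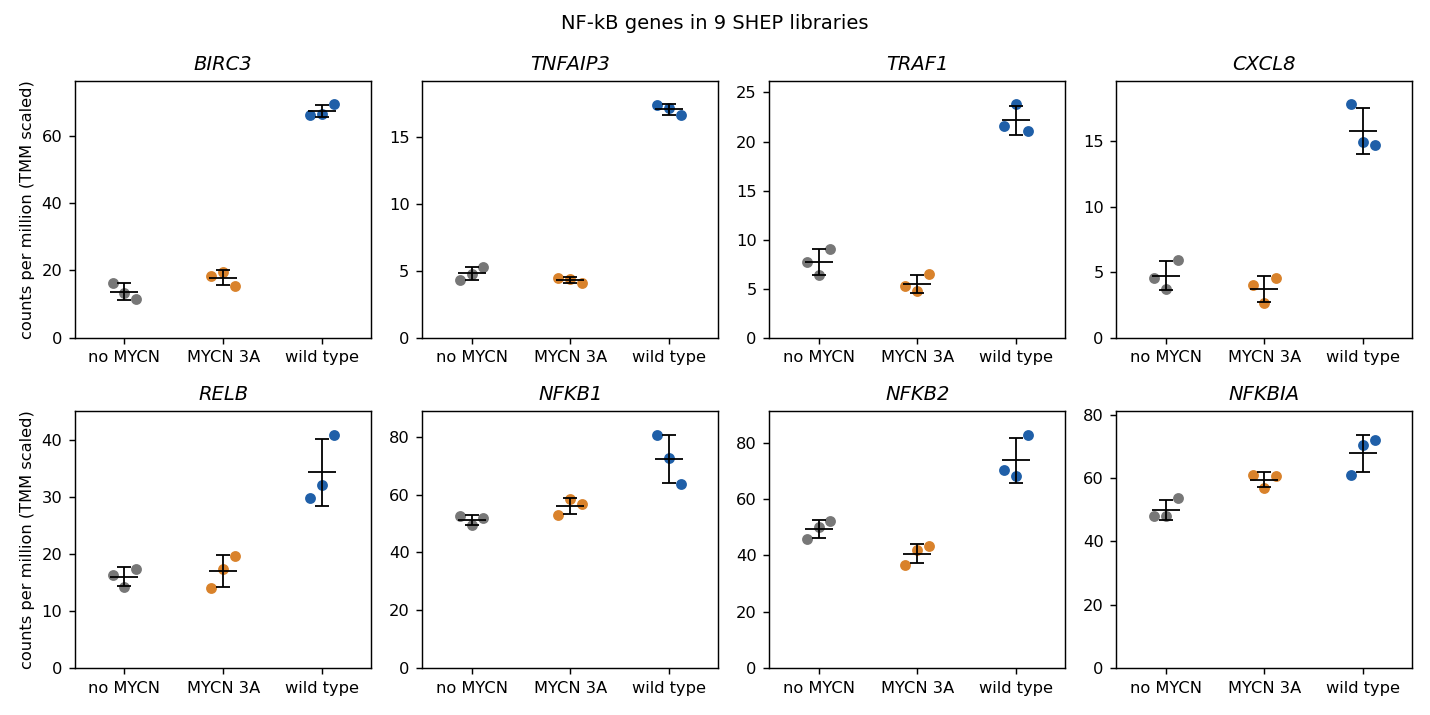
Normalised level in CPM (y axis, from 0) of the 8 tested NF-kB genes in each of 9 SHEP libraries, by labelled group; points are libraries, and bars are the mean and SD over 3 libraries. All 3 wild type MYCN libraries lie above the other 6 in each panel, by far for BIRC3 (66.1 to 69.4 CPM, against 11.4 to 19.7) and narrowly for NFKBIA (61.0 to 72.0 CPM, against 48.0 to 60.9).

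NFKB1 (chr4:103422486-103538459, with gene coordinates in hg19 throughout) encodes the precursor of a DNA-binding subunit of the canonical dimer. Its level was 52.4, 49.3 and 51.8 CPM in the 3 no MYCN libraries, 53.0, 58.4 and 56.6 CPM in the 3 MYCN 3A libraries, and 80.6, 72.7 and 63.7 CPM in the 3 wild type libraries. Each wild type library lay above all others, though the group spread widely. NFKB1 rose by 0.50 on the log2 scale against no MYCN (SE 0.10, edgeR adjusted p = 8.97e-04) and by 0.37 against 3A (SE 0.10, edgeR adjusted p = 0.00794). NFKB2 (chr10:104153867-104162281) encodes the precursor of the subunit that pairs with RELB in the non-canonical pathway. It stood at 45.9, 50.2 and 52.3 CPM without MYCN, at 36.7, 42.0 and 43.4 CPM with 3A, and at 70.4, 68.1 and 83.0 CPM with wild type. The 3 groups did not overlap, with 3A lowest. NFKB2 rose by 0.58 against no MYCN (SE 0.11, edgeR adjusted p = 3.25e-04) and by 0.86 against 3A (SE 0.11, edgeR adjusted p = 4.20e-06).

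RELB (chr19:45504688-45541452), the transactivating partner of the processed NFKB2 subunit, was measured at 16.4, 14.2 and 17.4 CPM without MYCN. With 3A it was at 14.02, 17.3 and 19.7 CPM, and with wild type at 29.8, 32.2 and 41.0 CPM. The no MYCN and 3A ranges overlapped and the wild type libraries lay above both. The log2 fold change of wild type was 1.1003 against no MYCN (SE 0.15, edgeR adjusted p = 1.20e-05) and 1.01 against 3A (SE 0.15, edgeR adjusted p = 3.47e-05). The other subunit genes stand beside these as context. RELA, the main transactivating subunit, was at 73.0, 75.5 and 70.6 CPM without MYCN, at 57.7, 57.2 and 59.8 CPM with 3A, and at 93.6, 84.6 and 79.3 CPM with wild type, with no overlap between groups. RELA was called higher in wild type than in 3A (log2 fold change 0.56, SE 0.09, edgeR adjusted p = 9.98e-05) and lower in 3A than in no MYCN (-0.33, SE 0.09, edgeR adjusted p = 0.0127, and 0.0613 without no MYCN replicate 2). Its value of 0.23 for wild type against no MYCN missed the threshold (edgeR adjusted p = 0.0702), and passed it with DESeq2 (0.0490) or without wild type replicate 3 (0.0448). REL, a subunit best known from lymphoid cells, was at a mean of 6.45, 7.17 and 8.07 CPM in no MYCN, 3A and wild type and was not called in any of the 3 comparisons.

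Among the inhibitors, NFKBIA (chr14:35870717-35873955) encodes IkB alpha, which retains the dimers in the cytoplasm and is itself a quick NF-kB target. Its level was 48.1, 48.0 and 53.7 CPM in the no MYCN libraries, 60.9, 56.8 and 60.7 CPM in the 3A libraries and 61.0, 70.4 and 72.0 CPM in the wild type libraries. The 3 groups did not overlap, but the lowest wild type library lay just above the highest 3A library. NFKBIA rose by 0.44 in wild type against no MYCN (SE 0.10, edgeR adjusted p = 0.00226). Between wild type and 3A it differed by 0.19 on the log2 scale (95% interval -0.02 to 0.39, edgeR adjusted p = 0.156), which was not called. TNFAIP3 (chr6:138188351-138204449) encodes a ubiquitin-editing enzyme that shuts the pathway down. It was at 4.34, 4.78 and 5.33 CPM without MYCN, at 4.48, 4.40 and 4.10 CPM with 3A, and at 17.4, 17.2 and 16.7 CPM with wild type. The wild type libraries formed a tight group above the other 6. The log2 fold change was 1.83 against no MYCN (SE 0.17, edgeR adjusted p = 8.58e-08) and 1.98 against 3A (SE 0.18, edgeR adjusted p = 3.89e-08). WAKMAR2, which overlaps TNFAIP3 on the other strand, had at most 8 counts in any library.

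BIRC3 (chr11:102188215-102210134) encodes a ubiquitin ligase that joins receptor complexes and restrains cell death. It had 16.3, 13.3 and 11.4 CPM in the no MYCN libraries, 18.4, 19.7 and 15.3 CPM in the 3A libraries, and 66.1, 66.6 and 69.4 CPM in the wild type libraries. The 3A range overlapped that of no MYCN, and the wild type libraries stood far above both. BIRC3 rose by 2.30 against no MYCN (SE 0.13, edgeR adjusted p = 2.65e-11), the 20th highest log2 fold change of 14923 tested genes, and by 1.92 against 3A (SE 0.13, edgeR adjusted p = 9.86e-10). TRAF1 (chr9:123664671-123691451) encodes a receptor-associated adaptor that recruits BIRC3. Its levels were 7.69, 6.42 and 9.07 CPM without MYCN, 5.22, 4.75 and 6.46 CPM with 3A, and 21.6, 23.8 and 21.0 CPM with wild type. The highest 3A library lay just above the lowest no MYCN library, and the wild type libraries were apart from both. TRAF1 rose by 1.52 against no MYCN (SE 0.17, edgeR adjusted p = 7.21e-07) and by 2.01 against 3A (SE 0.18, edgeR adjusted p = 2.72e-08).

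CXCL8 (chr4:74606223-74609433), a chemokine that attracts neutrophils, was the member of the inflammatory targets with counts enough to test. It stood at 4.59, 3.73 and 5.90 CPM without MYCN, at 4.03, 2.64 and 4.57 CPM with 3A, and at 17.8, 14.9 and 14.7 CPM with wild type. The no MYCN and 3A ranges overlapped, and wild type lay above both. CXCL8 rose by 1.73 against no MYCN (SE 0.21, edgeR adjusted p = 2.05e-06) and by 2.07 against 3A (SE 0.22, edgeR adjusted p = 4.28e-07). ICAM1 (chr19:10381511-10397291), the adhesion molecule that leukocytes bind, had 0 counts in all 9 SHEP libraries. CCL2 (chr17:32582304-32584222), a monocyte-attracting chemokine, had 2, 2 and 0 counts without MYCN, 2, 0 and 2 with 3A, and 0 in each wild type library. Neither passed the filter on low counts. A count of 0 in 1 library allows 3 counts, which is 0.186 to 0.264 CPM in these libraries, covers counting error only, and would be higher where both ends of a fragment add to a count.

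MYCN 3A against no MYCN was the comparison in which the call depended on the settings. Ranges were apart for 3 of 8 genes, NFKBIA, NFKB1 and NFKB2, where 41.3% of tested genes had ranges apart. BIRC3 (log2 fold change 0.38, SE 0.14, edgeR adjusted p = 0.0518) and NFKBIA (0.25, SE 0.10, edgeR adjusted p = 0.0653) lay on the higher side, and TRAF1 (-0.49, SE 0.19, edgeR adjusted p = 0.0542) and NFKB2 (-0.28, SE 0.11, edgeR adjusted p = 0.0599) on the lower side. DESeq2 called BIRC3 and NFKBIA higher, a fit of only these 2 groups called NFKBIA higher, and library totals called TRAF1 and NFKB2 lower. BIRC3 was also called without no MYCN replicate 1 (edgeR adjusted p = 0.0221) or without 3A replicate 3 (0.0318), and TRAF1 without no MYCN replicate 2 (0.0421) or without 3A replicate 3 (0.0391). The other 4 genes lay nearer to 0 relative to their errors, with CXCL8 at -0.33 (SE 0.23), TNFAIP3 at -0.15 (SE 0.19), NFKB1 at 0.13 (SE 0.10) and RELB at 0.087 (SE 0.16). RELB turned to -0.014 with library totals and to -0.035 without 3A replicate 3. The median over the 8 genes was -0.03, against -0.04 over all tested genes. The 95% interval of the 3A effect reached a fold of at most 1.59 for BIRC3, and the interval of the wild type effect on BIRC3 began at 4.05.

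**Figure D2:**
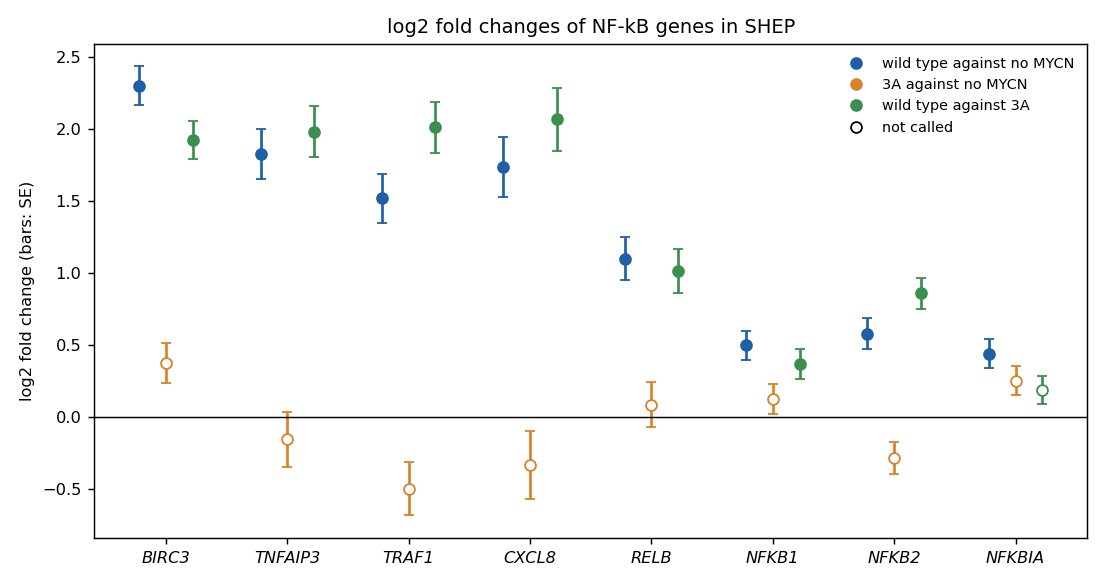
Log2 fold change (y axis) with its SE for each of the 8 tested NF-kB genes (x axis) in 3 SHEP comparisons; filled points were called and open points were not. Wild type against no MYCN runs from 0.44 for NFKBIA to 2.30 for BIRC3, while MYCN 3A against no MYCN stays between -0.49 and 0.38.

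The other genes of the pathway moved in both directions. Of a further 83 listed genes 79 matched a row, and 57 were tested in SHEP. Wild type MYCN against no MYCN called 14 of the 57 higher and 5 lower, with a median log2 fold change of 0.21. In that comparison 10.9% of all tested genes were higher and 11.3% lower. Without no MYCN replicate 1, 9 of 58 were higher, beside 1233 of all 15271 tested genes. With library totals 10 were higher and 8 lower, beside 1163 and 2147 of all 14923. MYCN 3A against no MYCN called 2 higher and 11 lower, where 12.7% and 12.8% of all tested genes were, with a median of -0.16. Library totals called 18 of 57 lower, beside 2928 of all 14923 tested genes. DESeq2 called 7 of 50 lower, beside 1712 of 12654. Leaving out any 1 of the 3 no MYCN libraries left 6 of 58 lower, beside 1022 to 1550 of all tested genes. Leaving out 3A replicate 3 left 1 of 58 higher, beside 1317 of 15343. The calls over all genes thus changed with the setting as well. Wild type against 3A called 19 higher and 5 lower, where 15.8% and 14.5% of all tested genes were, with a median of 0.27. Without 3A replicate 3, 1 was lower, beside 1619 of all 15343 tested genes. Without wild type replicate 2 or without 3A replicate 1, 3 were lower, beside 1613 of 15314 and 2082 of 15322. EXOSC10 itself was lower in 3A than in no MYCN (log2 fold change -0.40, edgeR adjusted p = 0.00954), a call lost without no MYCN replicate 1 (0.0787) or without 3A replicate 2 (0.0565). It was higher in wild type than in 3A (0.60, SE 0.11, edgeR adjusted p = 2.50e-04), a call kept in all 11 alternatives. Wild type against no MYCN did not call it (0.20, edgeR adjusted p = 0.195).

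By role, 5 of 18 tested adaptors and ubiquitin regulators were called higher and 2 lower in wild type against no MYCN. Of all tested genes, 10.9% were higher and 11.3% lower in that comparison. MYD88, the adaptor of Toll-like and IL-1 family receptors, was at 2.85, 4.63 and 4.46 CPM without MYCN, at 1.42, 3.52 and 3.00 CPM with 3A and at 15.6, 10.9 and 9.46 CPM with wild type. It rose by 1.60 against no MYCN (SE 0.26, edgeR adjusted p = 1.05e-04) and by 2.19 against 3A (SE 0.28, edgeR adjusted p = 5.97e-06). BIRC2, the close paralogue of BIRC3, rose from 94.6 to 169 CPM on average against no MYCN (log2 fold change 0.83, SE 0.10, edgeR adjusted p = 1.44e-06) and by 0.99 against 3A (SE 0.10, edgeR adjusted p = 1.85e-07). The 2 called lower against no MYCN were RNF31 (-0.51, SE 0.13, edgeR adjusted p = 0.00516) and TRADD (-0.58, SE 0.15, edgeR adjusted p = 0.00547, and up to 0.0574 in the alternatives). Of 16 tested other target genes, 6 were called higher and 1 lower in wild type against no MYCN. These counts stand beside the same 10.9% and 11.3% of all tested genes. CXCL1, a chemokine related to CXCL8, was at 4.96, 4.63 and 3.89 CPM without MYCN, 3.73, 3.52 and 4.89 CPM with 3A and 7.95, 13.5 and 10.8 CPM with wild type (log2 fold change against no MYCN 1.26, SE 0.22, edgeR adjusted p = 2.31e-04). CXCL3 rose by 1.76 (SE 0.41, edgeR adjusted p = 0.00328), from a mean of 0.907 to 3.12 CPM. PTX3, a secreted pattern recognition protein, rose by 0.91 (SE 0.11, edgeR adjusted p = 2.48e-06), from 28.9 to 54.3 CPM. TNFAIP2 fell by 1.58 (SE 0.38, edgeR adjusted p = 0.0041), from 2.81 to 0.929 CPM. CXCL1 and CXCL3 have close copies in the genome, so their counts are uncertain where reads could not be placed.

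Among 5 tested IkB family genes, NFKBIE rose by 0.88 in wild type against no MYCN (SE 0.13, edgeR adjusted p = 4.03e-05) and was also higher in 3A against no MYCN (0.52, SE 0.14, edgeR adjusted p = 0.00708, and 0.0571 without 3A replicate 3). NFKBIB, another inhibitor, was higher in 3A against no MYCN by 0.59 (SE 0.11, edgeR adjusted p = 7.30e-04) and in wild type against no MYCN by 0.38 (SE 0.11, edgeR adjusted p = 0.0178). The wild type call was lost without no MYCN replicate 1 (0.0838), without no MYCN replicate 2 (0.102) or without wild type replicate 3 (0.138). The nuclear members of the family, NFKBIZ (-0.77, SE 0.27, edgeR adjusted p = 0.0356) and BCL3 (-0.56, SE 0.20, edgeR adjusted p = 0.0433), were called lower in 3A against no MYCN. Both calls were lost with DESeq2 (0.0567 and 0.0682). NFKBIZ lost it without no MYCN replicate 1 or 3 or 3A replicate 2 or 3 (0.0612 to 0.182), and BCL3 without any 1 library other than no MYCN replicate 1 (0.0510 to 0.210). Of 7 tested receptors, 3 were called lower in 3A against no MYCN and the other 4 were not called. In that comparison 12.8% of all tested genes were lower. TNFRSF1A, the main receptor for TNF, fell in 3A by 0.32 (SE 0.09, edgeR adjusted p = 0.00882) and in wild type by 0.50 (SE 0.09, edgeR adjusted p = 1.69e-04), both against no MYCN. RIPK1, the kinase scaffold downstream of that receptor, fell by 0.45 in 3A (SE 0.11, edgeR adjusted p = 0.00452). Of 9 ligand genes on the list 1 passed the filter on low counts in SHEP, TNFSF12.

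**Figure D3:**
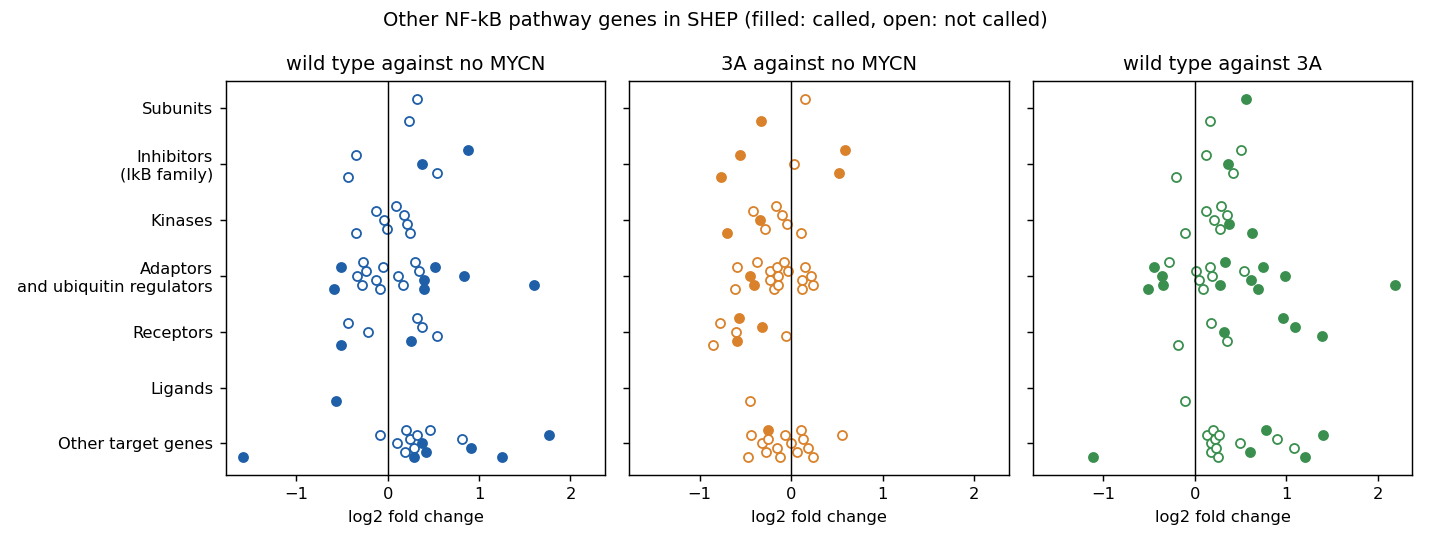
Log2 fold change (x axis) of the other tested NF-kB pathway genes in SHEP, by role (rows) and comparison (panels); each point is a gene, filled where called. Of 57 genes, wild type against no MYCN called 14 higher and 5 lower, and MYCN 3A against no MYCN called 2 higher and 11 lower.

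Markers of cells other than neuroblastoma were low in SHEP. The summed level of the leukocyte list was 12.2 to 15.4 CPM without MYCN, 10.2 to 14.3 CPM with 3A and 16.3 to 17.1 CPM with wild type. Of its 8 genes, 7 were under 1 CPM in every group mean, and PTPRC had at most 4 counts in a library. The endothelial, epithelial and Schwann cell lists summed to at most 1.10, 1.49 and 2.60 CPM in a SHEP library. CD68, a lysosomal gene that accounted for most of the sum, was called higher in wild type than in 3A (log2 fold change 0.49, SE 0.16, edgeR adjusted p = 0.0226). Of the 8 mesenchymal markers, 3 were called higher and 4 lower in wild type against no MYCN, where 10.9% and 11.3% of all tested genes were. Their log2 fold changes there ran from -1.81 for COL1A1 to 0.46 for PRRX1. In 3A against no MYCN 0 were higher and 5 lower, where 12.7% and 12.8% of all tested genes were. In wild type against 3A 5 were higher and 3 lower, where 15.8% and 14.5% were. The part of CD68 or of the mesenchymal genes in the NF-kB results was not tested.

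The genes whose pattern was most like that of a member were named by the Pearson correlation of log2 CPM over the 9 SHEP libraries, among genes with a mean log2 CPM of at least 3. The libraries share their 3 groups, so any gene that is high with wild type alone scores well, and the values are a description. For BIRC3 they were TRA2B (0.993), NARS1 (0.993) and RBBP8 (0.992), and 254 of 9787 genes had a correlation over 0.9. For TNFAIP3 they were PHLDA1 (0.991), PTBP1 (0.989) and ERRFI1 (0.988), with 269 genes over 0.9. For CXCL8 they were GMEB1 (0.993), ELL (0.986) and the member TRAF1 (0.985), with 185 genes over 0.9.

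In IMR-32, depletion of EXOSC10 was accompanied by less NFKBIA RNA and by no other call among the 5 tested NF-kB genes. NFKBIA was at 25.7, 27.2 and 25.1 CPM in control and at 17.3, 16.8 and 18.7 CPM in the depleted libraries. The groups were well apart. NFKBIA fell by 0.56 on the log2 scale (SE 0.11, edgeR adjusted p = 3.12e-05). It was 1 of 5 called lower, where 13.7% of all 17103 tested genes were (27.1% in either direction), and 1 of 5 with ranges apart, where 38.4% were. With 0 of 5 called higher (13.5% of tested genes), edgeR gave no gene other than NFKBIA an unadjusted p under 0.05, and DESeq2 made the same counts of 1 lower and 0 higher.

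The other 4 genes overlapped between control and depleted libraries. NFKB1 was at 11.6, 10.2 and 12.2 CPM in control and 14.2, 11.4 and 11.7 CPM after depletion (log2 fold change 0.13, SE 0.14). NFKB2 was at 35.6, 31.9 and 30.1 CPM against 33.5, 26.8 and 27.7 CPM (-0.15, SE 0.10). Neither was called, and the 95% interval of the fold was 0.90 to 1.34 for NFKB1 and 0.788 to 1.03 for NFKB2. RELB, at 2.58, 2.31 and 2.09 CPM in control and 2.50, 1.69 and 1.02 CPM after depletion, had a log2 fold change of -0.43 (SE 0.36). TRAF1, at 1.46, 0.932 and 1.19 CPM in control and 0.490, 0.786 and 1.06 CPM after depletion, had one of -0.59 (SE 0.50). At 10 to 53 counts a library these 2 genes have wide errors. RELA was at 81.8 to 84.0 CPM in control and 75.6 to 78.8 CPM after depletion, with no overlap, and was not called (edgeR adjusted p = 0.187).

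BIRC3, TNFAIP3, CXCL8, ICAM1 and CCL2 did not pass the filter on low counts in IMR-32. BIRC3 had 0 to 6 counts a library, TNFAIP3 and CXCL8 had 2 counts in 1 control library and 0 in the other 5, and CCL2 had 0 in all 6. ICAM1 had 4, 2 and 6 counts in control and 14, 0 and 2 counts after depletion. In these libraries 3 counts stand for 0.114 to 0.181 CPM.

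Other pathway genes in IMR-32 were called higher in 7 and lower in 8 of 47 tested cases, near the 13.5% and 13.7% of all tested genes, with a median of 0.09. The higher count was 4 with DESeq2, with no filter on low counts, without control replicate 2 or without shEXOSC10 replicate 2, and 3 without shEXOSC10 replicate 3. Over all tested genes these settings called 1844 to 2147 higher, against 2302 in the main fit. The lower count was 5 without control replicate 3 or without shEXOSC10 replicate 1, and 4 without shEXOSC10 replicate 2. These 3 settings called 1939 to 2133 of all tested genes lower, against 2337 in the main fit. TAB2, which couples upstream signals to the kinase MAP3K7, fell by 0.64 (SE 0.08, edgeR adjusted p = 5.33e-10). IL1RAP, a shared chain of IL-1 family receptors, fell by 1.70 (SE 0.33, edgeR adjusted p = 2.60e-05), from a mean of 3.93 to 1.20 CPM. TNFRSF1A fell by 0.29 (SE 0.08, edgeR adjusted p = 0.00556). TRAF3, which restrains the non-canonical kinase MAP3K14, rose by 0.30 (SE 0.08, edgeR adjusted p = 0.00289), and TNFAIP2 rose by 0.55 (SE 0.11, edgeR adjusted p = 9.92e-05). The adrenergic markers moved with the groups as well: 7 of 8 were called lower and 1 higher, and their sum went from 3081 to 3321 CPM in control to 1812 to 1871 CPM. Mitochondrially encoded genes took 6.70 to 7.49% of counts in control and 7.90 to 8.22% after depletion. The part of either in the NFKBIA difference was not tested.

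**Figure D4:**
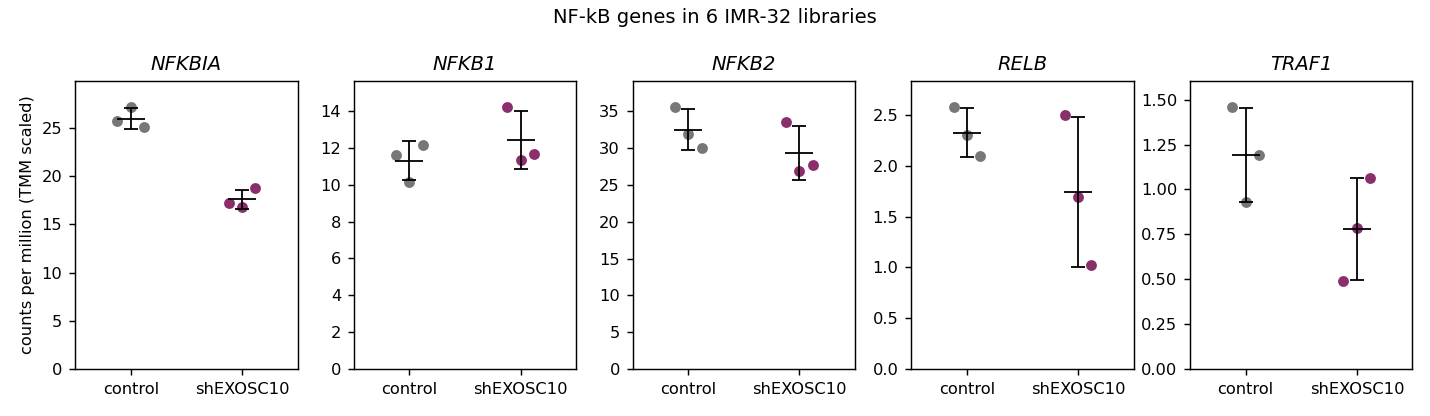
Normalised level in CPM (y axis, from 0) of the 5 tested NF-kB genes in each of 6 IMR-32 libraries; points are libraries, and bars are the mean and SD over 3 libraries. NFKBIA is lower in all 3 shEXOSC10 libraries (16.8 to 18.7 CPM) than in all 3 controls (25.1 to 27.2), and the other 4 genes overlap between groups.

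By mean level per gene length, NFKBIA was highest of the 10 genes in each of the 5 groups, while CCL2 and ICAM1 were under 1 TPM in every library. In EXOSC10-depleted IMR-32 replicate 1, however, NFKB2 (24.2 TPM) lay above NFKBIA (23.5 TPM). Mean TPM of NFKBIA was 83.4 ± 2.94 (SD, n = 3) with wild type MYCN, 68.5 ± 1.82 with 3A, 64.3 ± 3.51 without MYCN, 35.4 ± 1.28 in IMR-32 control and 23.9 ± 1.38 after EXOSC10 depletion. The ranges of 3A and no MYCN overlapped in this order and the other neighbours did not. NFKB2 ran from 48.1 ± 3.94 TPM with wild type through 33.7 ± 1.51 without MYCN and 24.8 ± 2.05 with 3A to 23.4 ± 1.51 and 21.1 ± 2.71 in IMR-32 control and depleted cells, the last 3 overlapping in order. The 2 tables were counted separately, so levels between the lines were set side by side with no test.

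NFKB1 and RELB were lower in IMR-32 than in any SHEP group. NFKB1 had 34.0 ± 5.87 TPM with wild type MYCN, 25.0 ± 1.22 without MYCN and 24.5 ± 1.45 with 3A, against 5.85 ± 0.623 in IMR-32 control and 6.40 ± 0.829 after depletion. RELB had 33.0 ± 4.06, 16.1 ± 1.72 and 15.3 ± 2.39 TPM in the same SHEP groups, against 2.47 ± 0.201 and 1.85 ± 0.792 TPM in IMR-32. For both genes no MYCN overlapped with 3A, and control overlapped with depleted.

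BIRC3, TNFAIP3 and CXCL8 were near 0 in IMR-32 and measurable in every SHEP library. BIRC3 had 26.3 ± 1.00 TPM with wild type, 6.52 ± 0.969 with 3A and 5.60 ± 1.15 without MYCN, against at most 0.0979 TPM in an IMR-32 library. CXCL8 had 20.4 ± 3.44, 4.49 ± 1.11 and 6.37 ± 1.42 TPM in the same order, and TNFAIP3 had 9.96 ± 0.770, 2.36 ± 0.153 and 2.93 ± 0.245 TPM. TRAF1 had 10.1 ± 0.839, 2.32 ± 0.321 and 3.66 ± 0.615 TPM in SHEP and 0.597 ± 0.126 and 0.389 ± 0.142 TPM in IMR-32 control and depleted cells. For TNFAIP3 and TRAF1 the no MYCN and 3A ranges of TPM did not overlap, although their CPM ranges did. NFKBIA and NFKB1 went the other way, with these ranges apart in CPM and overlapping in TPM. The mean of NFKB1 was higher in 3A than in no MYCN in CPM (55.98 against 51.18) and lower in TPM (24.5 against 25.0). The mean of RELB changed order likewise (17.02 against 15.99 CPM, and 15.3 against 16.1 TPM). For NFKB1 and RELB the direction of the 3A difference therefore depended on the scaling.

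**Figure D5:**
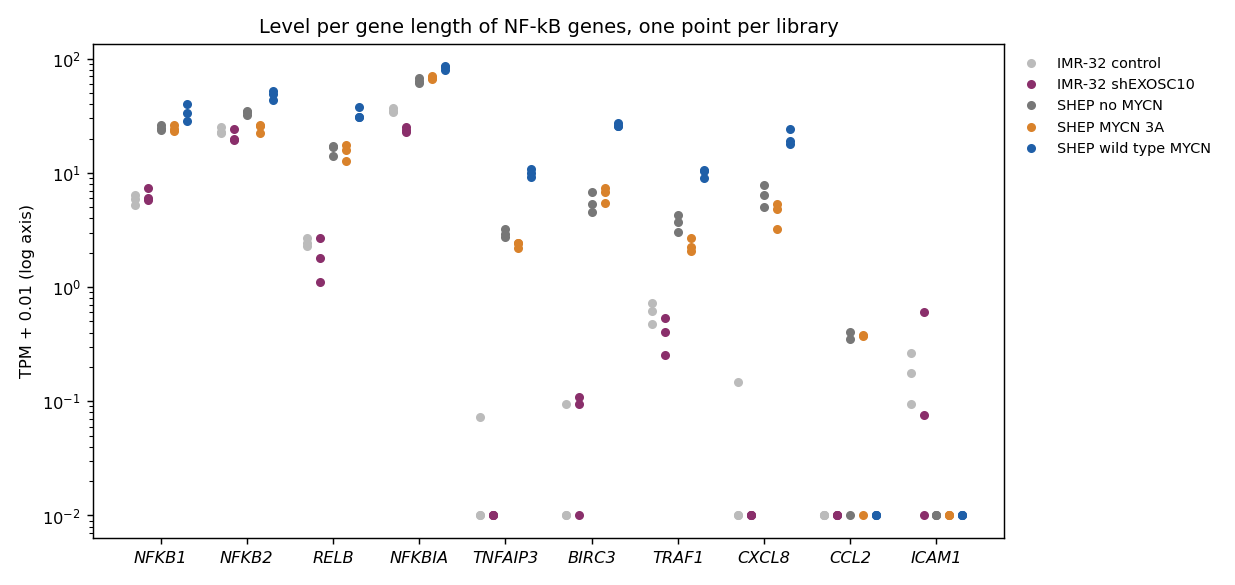
Level per gene length (TPM plus 0.01, log axis) of all 10 NF-kB genes in 15 libraries of 5 groups, with a point for each library; points at the bottom are libraries with 0 counts. NFKBIA has the highest mean in each group (23.9 to 83.4 TPM), though NFKB2 lies above it in shEXOSC10 replicate 1. BIRC3, TNFAIP3 and CXCL8 are near 0 in IMR-32 and highest in SHEP with wild type MYCN.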

How the data were processed

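Per the labels, polyadenylated RNA of SHEP and IMR-32 cells was sequenced. The authors deposited raw counts per gene, made with STAR 2.7.10a and featureCounts 2.0.3 on hg19, per the submitters' processing notes. Per the file headers, the SHEP table was counted with strand setting 2, a minimum overlap of 10 bases, reads of several genes counted for each, and Ensembl release 87. Settings of the IMR-32 table are not given in the sources used here. Of the values from 1 to 10 in a library, 65.5 to 77.1% were even, as when both ends of a fragment add to a count, so a count is not a molecule.

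The tables were fitted separately (R 4.3.3, edgeR 4.0.16): filterByExpr, TMM, robust quasi-likelihood test, group only, all 3 SHEP groups in 1 fit. Intervals use the fit's degrees of freedom. edgeR was tested on simulated data. DESeq2 1.42.0, library totals, no filter, a replicate block, only the groups compared and each replicate left out were alternatives. TPM used the deposited gene length. Symbols came from a gene name table by Ensembl ID, and 4 pathway symbols and 1 marker that matched no row were not analysed here.

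All 10 members, EXOSC10, MYCN, RELA and REL were named; of other pathway genes, at most the 3 called genes of smallest p by role, direction and comparison. Members and lists were chosen with earlier results of these data known.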

Additional observations from a re-analysis of the deposited data

How the results depend on the processing

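The comparisons of wild type MYCN with no MYCN and with 3A kept direction and call for all 8 members under all 88 member alternatives each, and EXOSC10 depletion for all 5 under all 50. NFKB1 in wild type against 3A came close to the threshold, with adjusted p up to 0.0485 over the edgeR and DESeq2 alternatives. Its log2 fold change there went down to 0.29. In MYCN 3A against no MYCN, where 0 members were called, 2 were called higher with DESeq2, 1 with only the groups compared, 2 lower with library totals, and leaving out 1 replicate gave 0 to 1 higher and 0 to 1 lower. Beside these, DESeq2 called 2058 of 12654 tested genes higher, and only the groups compared called 2182 of 14502. Library totals called 2928 of 14923 lower. RELB there turned to -0.014 with library totals, and ranged from -0.035 (without 3A replicate 3) to 0.21 (without 3A replicate 1) with 1 replicate left out. The genes called in that comparison fell from 3806 to between 2166 (without no MYCN replicate 1) and 3616, with 2508 without no MYCN replicate 2; fewer samples entered those fits. The cause of the other differences was not tested.

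The labels give replicates a number only. Same-numbered libraries of different groups had residual correlations of -0.033 to 0.14 in SHEP, against -0.13 to 0.062 for different numbers, and of 0.025 to 0.044 in IMR-32, against -0.031 to -0.012. In SHEP 5 of 9 libraries, and in IMR-32 6 of 6, correlated best with their own number, a hint from the data and not the design, so the block was not used for the main values. A replicate block called 2 members higher (BIRC3, edgeR adjusted p = 0.0266, and NFKBIA, 0.0292) and 2 lower (NFKB2, 0.0189, and TRAF1, 0.0401) in MYCN 3A against no MYCN and changed no other member call, and raised the genes called from 4639 to 5251 in IMR-32, and in SHEP from 3315 to 4184, 3806 to 4794 and 4527 to 5414.

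Without the filter on low counts, CCL2 in SHEP (edgeR adjusted p 0.357 to 1) and BIRC3, TNFAIP3, CXCL8 and ICAM1 in IMR-32 (0.508 to 0.865) were not called. ICAM1 in SHEP and CCL2 in IMR-32, at 0 counts throughout, could not be compared.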

Other observations

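A pair of other NF-kB target genes lay under the filter on low counts in SHEP and were chosen after their values were seen. CCL20, a chemokine, had 0, 0 and 1 counts in the no MYCN libraries, 3, 2 and 2 in the MYCN 3A libraries and 8, 10 and 10 in the wild type libraries. BCL2A1, which encodes a survival protein of the BCL2 family, had 0 counts in each no MYCN library, 2, 2 and 4 with 3A and 4, 24 and 12 with wild type. For CCL20 the 3 groups did not overlap, and for BCL2A1 the lowest wild type library equalled the highest 3A library. Both genes had 0 counts in all 6 IMR-32 libraries. In a fit without the filter, chosen after the values were seen, edgeR's quasi-likelihood test called both higher in wild type against no MYCN (adjusted p = 0.0203 for CCL20 and 2.22e-04 for BCL2A1). MYCN 3A against no MYCN called BCL2A1 (0.0492) and not CCL20 (0.334), and wild type against 3A called neither (0.367 for CCL20 and 0.149 for BCL2A1). Both the genes and the fit were picked from these same counts, so the adjusted p-values are a description and no test.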
